A study of Mus musculus with 9 samples.

Results

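The 10 genes described here encode proteins of elastic fibres and of the matrix that surrounds them: Fbn1, Eln, Lox, Loxl1, Spon2, Lum, Dcn, Postn, Sparc and Thbs1. They were taken by gene symbol from a table of read counts for 56748 mouse genes, and all 10 were found in it once. The genes were chosen by name with the measured formoterol-against-vehicle differences of these libraries already known, so the differences between the groups given below describe these libraries and serve as no test of the list. Bulk poly(A) RNA of liver was sequenced from male C57BL/6J mice fed a high-fat diet for 20 weeks from 8 weeks of age and aged 28 weeks at the end. In the last 4 weeks, 5 mice received formoterol at 1 mg/kg and 4 received its vehicle, DMSO, each as a daily injection into the peritoneum. Formoterol is a long-acting agonist of the beta2-adrenergic receptor, which raises cyclic AMP in cells. Both groups ate the high-fat diet. Libraries are called by the animal codes of the count table: M46, M47, M48, M49 and M50 for formoterol and M56, M58, M59 and M60 for vehicle, by the last letter of the column suffix and the group sizes.

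Elastic fibres have a core of cross-linked elastin laid down on microfibrils of fibrillin, and lysyl oxidases make the cross-links by oxidising lysine side chains of elastin and collagen. Small leucine-rich proteoglycans such as decorin and lumican bind collagen fibrils and set their diameter and spacing. Matricellular proteins such as SPARC, periostin and thrombospondin 1 are secreted into the matrix but act mainly on cells, growth factors and fibril assembly rather than as structural parts. In liver these proteins come largely from hepatic stellate cells, portal fibroblasts and vascular cells, and they accumulate in fibrosis.

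The libraries held from 12336665 to 20339665 counts. Genes with a count numbered 15797 in M46 and 16081 in M49, 17057 to 18155 in the other formoterol libraries and 17540 to 19104 in the vehicle libraries. Genes of the mitochondrial genome took 16.4% (M46) to 38.6% (M50) of the counts in the formoterol and 23.4% to 34.0% in the vehicle libraries. Levels are given as CPM, read counts divided by the library total and adjusted by TMM factors for differences in composition between libraries. Hepatocyte markers were high in every library, and their summed level was 92817 to 106550 CPM in the vehicle and 108702 to 148203 CPM in the formoterol libraries, so the groups did not overlap. Alb made up most of this sum, its own groups overlapped, and of the 10 hepatocyte markers Apoa1 alone did not overlap, while 3 (Apob, Trf and Tat) had a negative log2 fold change. Summed over 12 stellate cell markers the level was 116 to 125 CPM in the vehicle libraries and 42.1 to 156 CPM in the formoterol libraries, lowest in M46 and highest in M49. The 10 endothelial markers summed to 87.5 to 106 CPM in the vehicle and 37.2 to 122 CPM in the formoterol libraries, again with M46 lowest and M49 highest. Of the 12 stellate cell markers 9 had a negative log2 fold change (median −0.21), as did 8 of the 10 endothelial markers (median −0.29). So did 6 of the 8 macrophage markers (median −0.21), while 3 of the 5 cholangiocyte markers tested had a positive one (median 0.13). The 8 portal fibroblast markers summed to 71.3 to 94.9 CPM in the vehicle libraries, and to 45.6 CPM in M46, 52.0 in M47, 36.1 in M48, 113 in M49 and 53.8 in M50. So 4 of 5 formoterol libraries lay below the vehicle range and M49 above it, all 5 markers tested had a negative log2 fold change, and Gas6 made up most of the sum. Mesothelial and smooth muscle markers were sparse, summing to at most 4.66 and 7.12 CPM, and the smooth muscle marker Actg2 had no count in any library. The part of these markers, of the number of genes with a count and of the mitochondrial share in the results below was not tested, and in bulk tissue fewer cells of a type and less RNA per cell cannot be told apart.

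Fbn1 and Spon2 were the 2 members whose formoterol libraries all lay below all vehicle libraries. The other members tested had lower means in the formoterol group, with groups that overlapped, and Postn differed least. For most members M46 was the lowest and M49 the highest of the formoterol libraries, and the plot of CPM by library shows this for each gene.

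**Figure D1:**
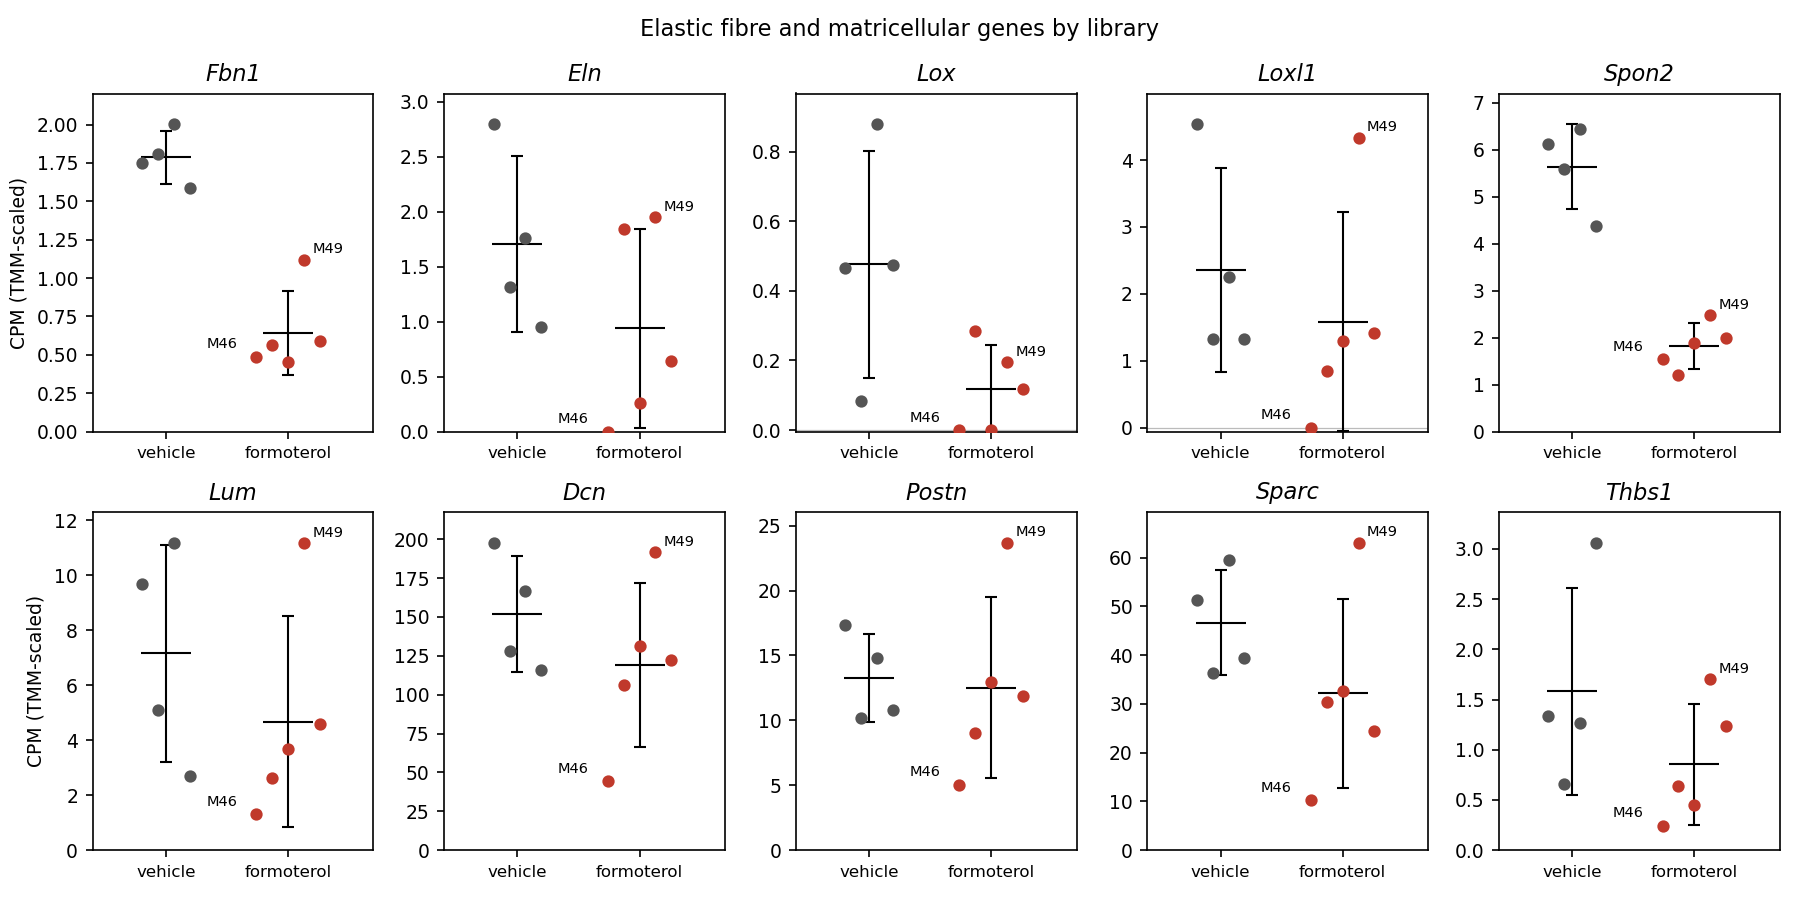
CPM of the 10 members in each library (points; 4 vehicle in grey, 5 formoterol in red), with the group mean and SD as black bars; each panel has its own vertical axis. For Fbn1 and Spon2 the highest formoterol library (1.12 and 2.49 CPM) lies below the lowest vehicle library (1.58 and 4.38 CPM), while the other 8 panels overlap.

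Fbn1 (ENSMUSG00000027204; chromosome 2, 125142514 to 125349913 on mm39, minus strand) encodes fibrillin 1, the main protein of the microfibrils that carry elastin. Its level in the vehicle livers was 1.75 CPM in M56, 1.81 in M58, 2.00 in M59 and 1.58 in M60. In the formoterol livers it was 0.488 CPM in M46, 0.567 in M47, 0.454 in M48, 1.12 in M49 and 0.588 in M50. All 5 formoterol libraries were below the vehicle range, with M49 nearest to it. The means were 0.644 ± 0.272 CPM (SD, n = 5) and 1.79 ± 0.173 CPM (SD, n = 4), a log2 fold change of −1.44 (SE 0.44). These levels rest on few reads, 54 counts over the 5 formoterol libraries and 123 over the 4 vehicle libraries. The filter on low counts asked for about 0.6 CPM in 4 libraries. Fbn1 reached this in all 4 vehicle libraries but in M49 alone of the formoterol libraries, so it was tested only through the group where it was high.

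Eln (chromosome 5, 134731447 to 134776177), which encodes the elastin precursor, had 2.80 CPM in M56, 1.32 in M58, 1.76 in M59 and 0.950 in M60. The formoterol libraries had no count in M46, 1.84 CPM in M47, 0.259 in M48, 1.95 in M49 and 0.647 in M50. M46, M48 and M50 lay below the vehicle range and M47 and M49 inside it, so the groups overlapped. The log2 fold change of −0.83 (SE 0.73) was −0.49 without M56, −0.55 without M46 and −1.30 without M49, and −1.50 by limma-voom. In M46, a count of 0 allows up to 0.244 CPM (3 counts), a limit that covers counting error only.

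Of the 2 lysyl oxidases, Loxl1 (chromosome 9, 58195021 to 58220469), which is needed to renew elastic fibres, had 4.54 CPM in M56, 1.32 in M58, 2.25 in M59 and 1.32 in M60. In the formoterol libraries it had no count in M46, 0.851 CPM in M47, 1.30 in M48, 4.34 in M49 and 1.41 in M50. M49 was near the highest vehicle library and M46 far below all others. The log2 fold change of −0.54 (SE 0.75) was smaller than its error, and it was −1.37 (SE 0.66) without M49 and −0.26 (SE 0.53) without M46. Without vehicle library M56 it was −0.02, and by limma-voom it was −1.13, or −1.37 with a quality weight for each sample.

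Lox (chromosome 18, 52649139 to 52662939), which encodes lysyl oxidase itself, had 36 counts over the 4 vehicle libraries and 10 over the 5 formoterol libraries. It was the 1 member that did not pass the filter on low counts and was not tested. Its level was 0.466 CPM in M56, 0.0823 in M58, 0.879 in M59 and 0.475 in M60. In the formoterol libraries M46 and M48 had no count, and M47, M49 and M50 had 0.284, 0.195 and 0.118 CPM. The groups overlapped through the single count of M58, and 3 counts correspond to 0.146 to 0.247 CPM in these libraries, so most formoterol values are at the limit of detection.

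Spon2 (ENSMUSG00000037379; chromosome 5, 33355528 to 33375799, minus strand) encodes spondin 2, a secreted matrix protein that also binds integrins and bacterial products. It had 6.12 CPM in M56, 5.60 in M58, 6.44 in M59 and 4.38 in M60. In the formoterol livers it had 1.55 CPM in M46, 1.21 in M47, 1.88 in M48, 2.49 in M49 and 2.00 in M50. Unlike Dcn, Sparc or Postn, it was low in M49 as well as in M46, and its formoterol mean was 32.4% of the vehicle mean. The log2 fold change was −1.61 (SE 0.28), and it stayed between −1.76 and −1.51 when any 1 of the 9 libraries was left out.

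Sparc (chromosome 11, 55285326 to 55314009) encodes a collagen-binding glycoprotein that takes part in the handling of procollagen. It had 51.3 CPM in M56, 36.4 in M58, 59.6 in M59 and 39.4 in M60. It had 10.3 CPM in M46, 30.5 in M47, 32.6 in M48, 63.1 in M49 and 24.4 in M50. Of the formoterol libraries, 4 lay below the vehicle range and M49 above it. The log2 fold change of −0.53 (SE 0.40) was −0.94 (SE 0.30) without M49 and −0.32 (SE 0.27) without M46.

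Thbs1 (chromosome 2, 117942357 to 117957614) encodes thrombospondin 1, which can activate latent TGF-beta and restrains angiogenesis. It had 1.34 CPM in M56, 0.658 in M58, 1.27 in M59 and 3.06 in M60. The formoterol libraries had 0.244 CPM in M46, 0.638 in M47, 0.454 in M48, 1.71 in M49 and 1.24 in M50. M60 was far above the other vehicle libraries, the groups overlapped, and the log2 fold change of −0.86 (SE 0.59) was −0.33 without M60.

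Postn (chromosome 3, 54268530 to 54298458) encodes periostin, which binds collagen and integrins and aids collagen cross-linking. It had 17.4 CPM in M56, 10.2 in M58, 14.8 in M59 and 10.8 in M60. The formoterol libraries had 5.04 CPM in M46, 9.00 in M47, 13.0 in M48, 23.7 in M49 and 11.9 in M50. They spanned the whole vehicle range and went beyond it on both sides. The log2 fold change of −0.08 (SE 0.35) had no stable sign: it was 0.10 without M46, 0.003 without M47 and 0.07 without M56, but −0.45 without M49. Of the members, 3 matched the table of RefSeq promoters (GRCm38.p6, another build than that of the counts): Fbn1, Postn and Sparc. The 250 bases before the start of Postn (chr3:54360857-54361106, plus strand, GRCm38.p6) are shown because Postn is the member whose groups differed least. Those of Fbn1 and Sparc overlap annotated exons of other transcripts and are not printed. Capitals mark matches to any of 4 motifs, each searched on both strands. The first was TATAA, which marks many core promoters. The second was GGGCGG, which Sp1 family factors bind. The third was TGACG, one side of the element that responds to cyclic AMP. The fourth was CAGAC, which SMAD proteins bind:
Postn: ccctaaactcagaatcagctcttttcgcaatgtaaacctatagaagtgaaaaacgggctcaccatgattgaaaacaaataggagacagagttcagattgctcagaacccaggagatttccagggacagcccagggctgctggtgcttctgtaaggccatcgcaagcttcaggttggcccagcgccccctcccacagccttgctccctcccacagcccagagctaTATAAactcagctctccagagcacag
The window holds 1 TATAA just before the start and none of the other 3 motifs. That of Fbn1 holds 1 GGGCGG, and that of Sparc 1 CAGAC; these 2 windows are partly exonic. Of all 32851 windows of this length, 22.8% hold TATAA, 32.7% GGGCGG, 17.8% TGACG and 42.2% CAGAC, so each is common. TGACG is in none of the 3 windows, which says only that these letters are absent there.

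The 2 small leucine-rich proteoglycans lie next to each other on chromosome 10. Dcn (97315471 to 97354005), which encodes decorin, a proteoglycan that binds collagen and TGF-beta, was the most abundant member. It had 198 CPM in M56, 128 in M58, 166 in M59 and 116 in M60. It had 44.3 CPM in M46, 106 in M47, 131 in M48, 192 in M49 and 122 in M50. M46 lay far below the vehicle range and M47 just below it. Its log2 fold change of −0.35 (SE 0.32) was −0.16 without M46, −0.20 without M56 and −0.59 without M49. Lum (97400990 to 97408565), which encodes lumican, a keratan sulfate proteoglycan of collagen fibrils, had 9.67 CPM in M56, 5.10 in M58, 11.2 in M59 and 2.69 in M60. Its formoterol values were 1.30 CPM in M46, 2.62 in M47, 3.70 in M48, 11.2 in M49 and 4.59 in M50. The vehicle libraries alone ranged over 4-fold. For Lum the log2 fold change of −0.60 (SE 0.56) was −1.22 without M49, −0.38 without M46 and −0.30 without M59.

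Over the list, all 9 members tested had a negative log2 fold change, where 51.3% of the 13042 genes tested did, and the median was −0.60 against −0.01 for all genes. Leaving out M49 moved the members' median to −1.28, and leaving out M46 moved it to −0.38. Groups did not overlap and were lower in formoterol for 2 members, Fbn1 and Spon2, and for 2.38% of all genes; 0 members and 2.45% of all genes were higher without overlap. The same 2 members had a log2 fold change of −1 or below, as did 2.61% of all genes. None passed the edgeR quasi-likelihood test at an adjusted p under 0.05, and neither did any other gene (0%). At an unadjusted p under 0.05 there were 2 members lower and 0 higher, against 5.53% and 9.03% of all genes. DESeq2 called 1 member, Spon2, and 2.79% of the genes to which it gave an adjusted p. It gave one to 6 of the 9 members and none to Fbn1, Eln and Thbs1. The limma-voom test called 0 members (0%), and with a quality weight for each sample it called 2, Fbn1 and Spon2, and 10.8% of all genes. Without M49, edgeR called Fbn1 and Spon2 (adjusted p = 0.0312 and 0.00424, over the genes tested without that library), and 2.04% of those genes were called lower. Fbn1, Eln and Thbs1 were moreover among the genes tested only through their vehicle libraries. For each of them M46 and M48 lay below about 0.6 CPM, so fewer than 4 formoterol libraries reached the filter. All 3 therefore entered the count of negative members and the median through the group where they were high. Since the list was chosen with this comparison in view, nothing is read from these counts.

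**Figure D2:**
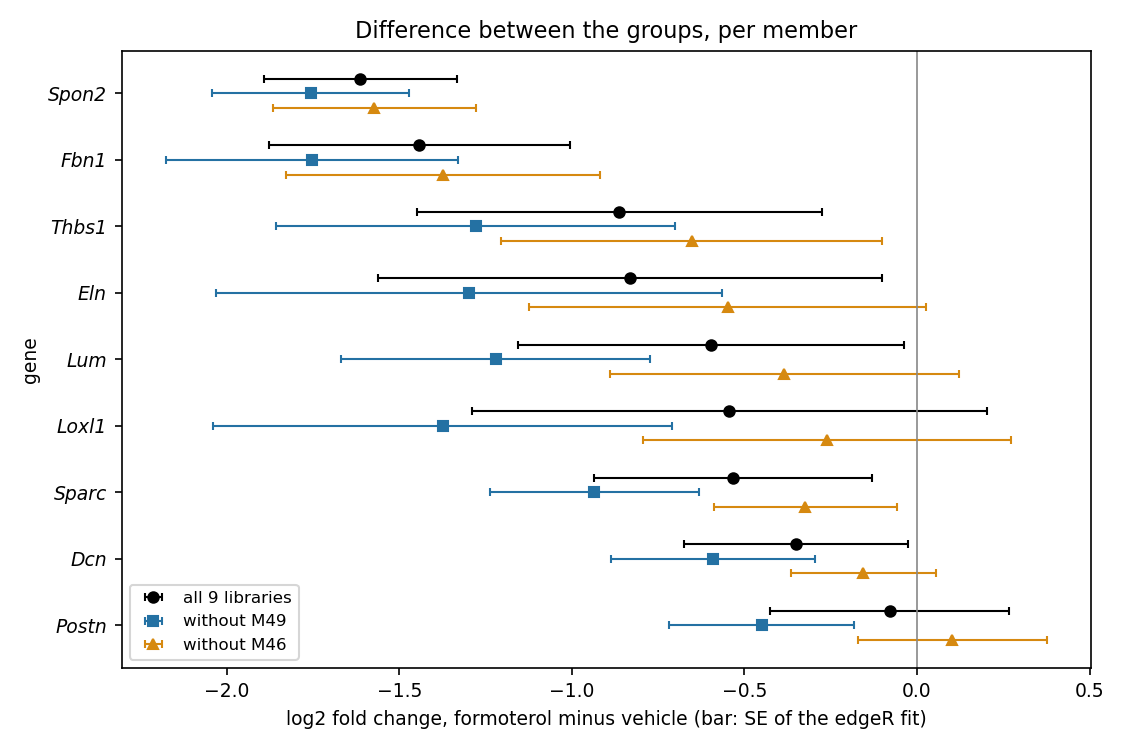
Log2 fold change (formoterol minus vehicle) of the 9 members tested, with the SE of the edgeR fit as bars, for all 9 libraries (black), without M49 (blue) and without M46 (orange). Spon2 (−1.76 to −1.57) and Fbn1 (−1.75 to −1.37) stay below −1 in all 3 sets, while Loxl1 goes from −1.37 to −0.26 and Postn changes sign.

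The members shared much of their variation from library to library. Averaged over the 9 members tested, log2 CPM lay below the 9-library mean in M46 (−1.79) and above it in M49 (0.78), M56 (0.91) and M59 (0.75), while M47, M48 and M50 lay between −0.46 and −0.19 and M58 and M60 at 0.19 and 0.22. M49 was the highest formoterol library for all 9 members tested, as for 28.1% of all genes, and M46 the lowest for 7 of the 9, as for 24.3%. The exceptions for M46 were Fbn1, lowest in M48, and Spon2, lowest in M47. The SD of log2 CPM was larger in the formoterol than in the vehicle libraries for all 9, as for 72.8% of all genes. For Sparc it was 0.94 against 0.33 and for Fbn1 0.44 against 0.13.

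**Figure D3:**
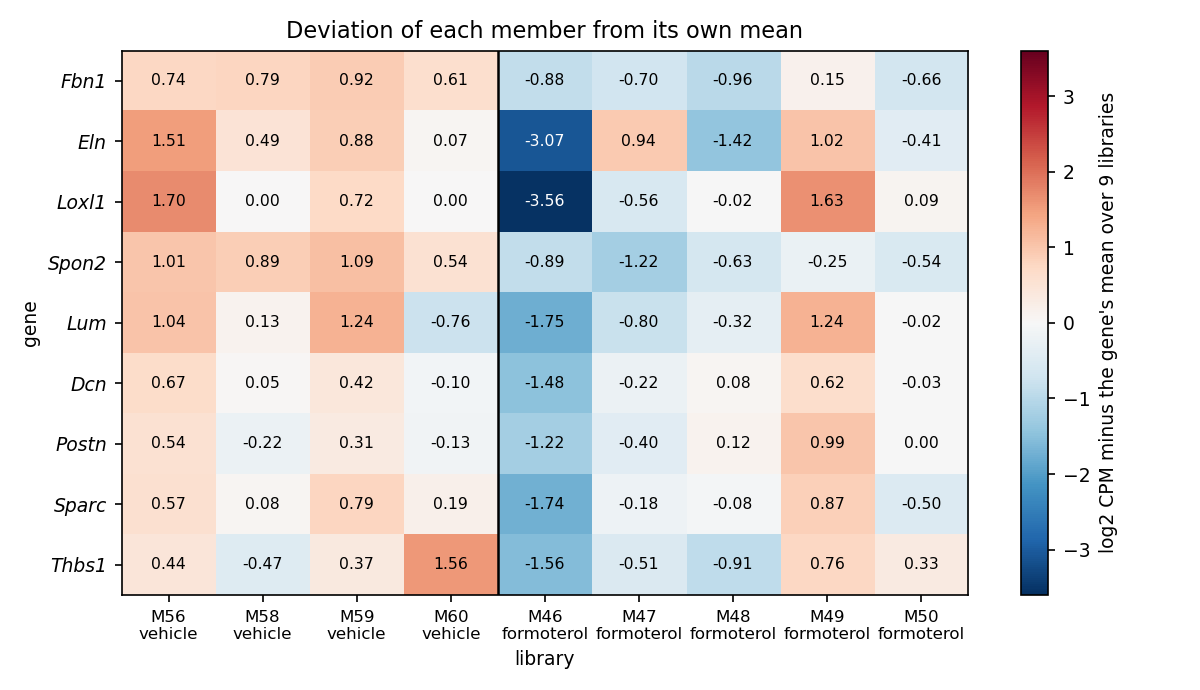
Heat map of log2 CPM of each member tested (rows) minus its mean over the 9 libraries (columns, vehicle left and formoterol right of the line). The M46 column is negative for every gene, and the M49 column is positive for every gene but Spon2 (−0.25); Fbn1, Spon2, Eln, Sparc and Loxl1 are positive in all 4 vehicle libraries (Loxl1 barely so in M58 and M60).

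Pairs of members are described by Pearson's r of log2 CPM over the 9 libraries, which share the same depth and cell makeup within each library. Over the 36 pairs of tested members the median r was 0.69 (range 0.42 to 0.99), and 0.71 (0.24 to 0.99) after each group's mean was removed. The highest r was that of Loxl1 and Dcn (r 0.99, Spearman's rho 0.85), and Dcn with Postn had r 0.95 and the highest rho, 0.93. In M46 Loxl1 had no count, so the prior count of 2 set its log2 CPM there, and Dcn was also lowest in M46. Fbn1 and Spon2 had r 0.95 with each other (rho 0.92) but 0.64 after the group means were removed, and Spon2 with Postn had r 0.42 (rho 0.57). The other lowest values were 0.46 for Fbn1 with Postn and 0.51 for Lum with Thbs1. As a within-library measure, the log2 ratio of Spon2 to Sparc averaged −3.01 ± 0.23 in the vehicle and −3.86 ± 0.81 in the formoterol libraries, where it ranged from −4.60 in M49 to −2.64 in M46. In the remaining 3 formoterol libraries it was −4.53 in M47, −4.03 in M48 and −3.53 in M50, all below the vehicle range of −3.19 to −2.67, so M46 alone made the groups overlap. The ratio of Postn to Sparc went the other way, −1.81 ± 0.18 in the vehicle and −1.30 ± 0.30 in the formoterol libraries.

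Set against the summed level of the 12 stellate cell markers of the same library, Spon2 and Fbn1 were again the members whose groups did not overlap, as for 0.698% of all genes in that direction. Spon2 amounted to 4.98% of the summed markers in M56, 4.82% in M58, 5.16% in M59 and 3.70% in M60. It amounted to 3.67% in M46, 1.29% in M47, 1.99% in M48, 1.59% in M49 and 1.44% in M50. M46 therefore lay next to M60, and the other formoterol libraries were far lower. Fbn1 amounted to 1.48 ± 0.123% in the vehicle and 0.678 ± 0.292% in the formoterol libraries, with M46 again highest of these at 1.16%. Sparc (38.5 ± 7.63% against 29.9 ± 8.94%), Dcn (126 ± 27.8% against 114 ± 19.0%) and Postn (10.97 ± 2.51% against 11.8 ± 2.74%) overlapped between vehicle and formoterol. M46 was no longer the lowest formoterol library for any of the 3. It stayed the lowest for Eln and Loxl1, which had no count there, and shared the lowest value of Lox with M48.

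**Figure D4:**
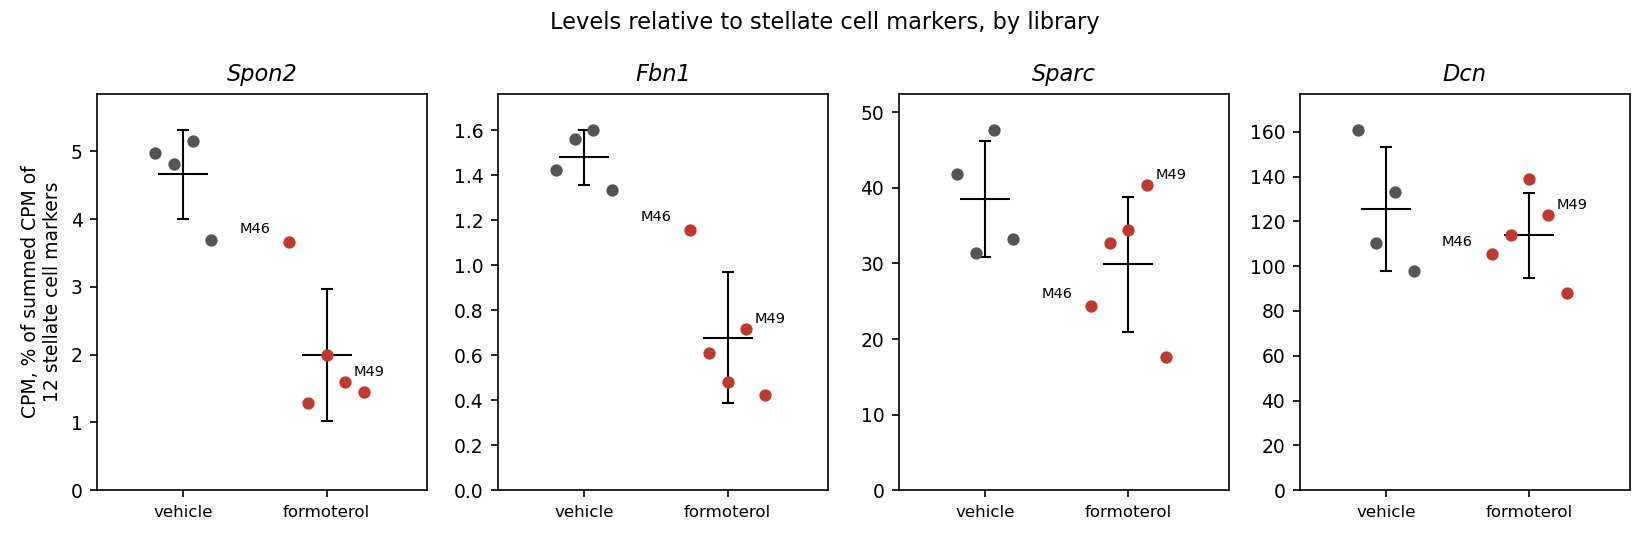
CPM of Spon2, Fbn1, Sparc and Dcn as a percentage of the summed CPM of 12 stellate cell markers in the same library (points; grey vehicle, red formoterol; black bars, mean and SD). Spon2 and Fbn1 do not overlap between the groups (for Spon2 3.67% at most in formoterol and 3.70% at least in vehicle), and Sparc and Dcn do.

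On a scale that allows genes to be compared with each other, CPM per kb of the deposited gene length, the order over the 9 libraries ran from Dcn (22.9 ± 8.07, SD) and Sparc (10.2 ± 4.49) through Lum (2.36 ± 1.58), Postn (1.48 ± 0.615), Spon2 (1.19 ± 0.716) and Loxl1 (0.584 ± 0.468) to Thbs1 (0.194 ± 0.140), Eln (0.158 ± 0.111), Fbn1 (0.0949 ± 0.0528) and Lox (0.0581 ± 0.0601). Dcn exceeded Sparc, and Sparc exceeded Lum, in all 9 libraries. Spon2 exceeded Loxl1 in 8 of 9. The other neighbours in this order did not differ beyond their spread, with the order holding in 5 to 7 of the 9 libraries. Spon2 was above Postn in all 4 vehicle libraries and below it in all 5 formoterol libraries.

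The other genes of the pathway were taken from 7 lists by known role, 92 genes in all, of which 64 were tested. These lists, like the members, were chosen with earlier results of these data known. The counts below therefore describe these libraries and serve as no test of the lists. By edgeR 0 of the 64 passed at an adjusted p under 0.05 (0% of all genes did). At an unadjusted p under 0.05, 6 were lower (9.38%, against 5.53% of all genes) and 1 was higher (against 9.03%). DESeq2 called 1 lower (Col5a2), against 2.79% of all genes. The limma-voom test called 0, and 14, all lower, once each sample had a quality weight, against 10.8% of all genes in either direction. Without M49, when 62 were tested, edgeR called 6, all lower, among them Fstl1, Col5a2, Col1a2, Sparcl1 and Tgfbi, against 2.04% of all genes called lower. At an unadjusted p under 0.05, 26 of the 62 were then lower, against 10.8% of all genes. With any library other than M49 left out, 4 to 8 partner genes were lower at an unadjusted p under 0.05. The median log2 fold change of the 64 was −0.31, with 49 negative. Over the 62 tested without M49 the median was −0.58, and without M46 it was −0.22.

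Among the partners of the elastic fibre, 11 of 12 tested were negative (median −0.46). Efemp2, which encodes fibulin 4, a protein that brings lysyl oxidase to elastin, had 1.55 ± 0.844 CPM (SD, n = 5) in the formoterol and 2.94 ± 0.836 CPM (SD, n = 4) in the vehicle livers. Ltbp1, which holds latent TGF-beta on microfibrils, had 2.21 ± 1.29 against 3.97 ± 1.46 CPM, and the lysyl oxidase Loxl2 had 1.14 ± 0.806 against 2.16 ± 1.19 CPM. The microfibril-associated Mfap3 had 4.46 ± 1.36 against 5.61 ± 1.79 CPM. None of the 12 had groups that did not overlap. Over all 64 partner genes tested, 3 were lower without overlap and 0 higher, against 2.38% and 2.45% of all genes.

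Of 13 other matricellular genes, 12 were negative (median −0.46). Fstl1, which encodes a secreted glycoprotein related to SPARC, ranged from 1.87 to 6.77 CPM in the formoterol and from 5.60 to 12.6 CPM in the vehicle libraries. Its log2 fold change was −1.07 with an SE of 0.33, at an adjusted p of 0.191 by edgeR. Ccn4, a CCN family protein, had 0.310 ± 0.230 against 0.846 ± 0.226 CPM. Its groups did not overlap but almost touched, at 0.651 CPM in the highest formoterol and 0.658 CPM in the lowest vehicle library. These levels rest on few reads, and Ccn4 passed the filter of about 0.6 CPM in 4 libraries only through its vehicle libraries. Tgfbi and Thbs2 had log2 fold changes of −0.42 (SE 0.24) and −0.86 (SE 0.56). Smoc1, a SPARC family gene, had the 1 value above 0, with 77.1 ± 9.72 CPM against 75.6 ± 4.17. Of 6 other small leucine-rich proteoglycan genes 5 were negative (median −0.40), with Fmod, Prelp and Bgn at −0.98 (SE 0.56), −0.92 (SE 0.53) and −0.73 (SE 0.59) and Omd at 0.24 (SE 0.27).

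The receptors had a median of 0.07 over 12 genes, 8 of them positive. Cd36, a receptor of thrombospondin 1 and of fatty acids, had 148 ± 27.0 CPM and 207 ± 26.3 CPM in the formoterol and vehicle livers, and its groups did not overlap. By edgeR its adjusted p was 0.213. Itgav, an integrin subunit that binds periostin and other matrix proteins, had 24.7 ± 2.29 CPM against 20.5 ± 2.96. Itgb5 and Stab1, a scavenger receptor that takes up SPARC, had log2 fold changes of −0.26 (SE 0.16) and −0.46 (SE 0.35).

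Genes of lysyl oxidase activation and copper supply had a median of −0.02 over 5. Atox1, a copper chaperone, ranged from 68.6 to 122 CPM in the formoterol and from 33.8 to 82.2 CPM in the vehicle libraries. Its log2 fold change was 0.62 with an SE of 0.23, at an adjusted p of 0.244 by edgeR. Pcolce, which encodes an enhancer of procollagen processing, had −0.67 (SE 0.41), Fn1 0.21 (SE 0.17), and Bmp1, the protease that releases active lysyl oxidase, −0.05 (SE 0.16). Of 10 TGF-beta genes 8 were negative (median −0.20). Skil, which encodes a repressor of SMAD signalling, had 3.29 ± 1.26 against 5.73 ± 0.990 CPM, and Smad3 and Smad4 had log2 fold changes of −0.49 (SE 0.25) and 0.30 (SE 0.18).

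The 6 fibrillar collagen genes tested were all negative (median −0.85). Col5a2, a chain of type V collagen, which forms the core of type I fibrils, ranged from 0.488 to 1.00 CPM in the formoterol and from 2.43 to 3.76 CPM in the vehicle libraries, so its groups did not overlap. Col3a1, Col1a2 and Col1a1 had log2 fold changes of −0.76 (SE 0.46), −0.94 (SE 0.61) and −1.43 (SE 0.97), and their groups overlapped.

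**Figure D5:**
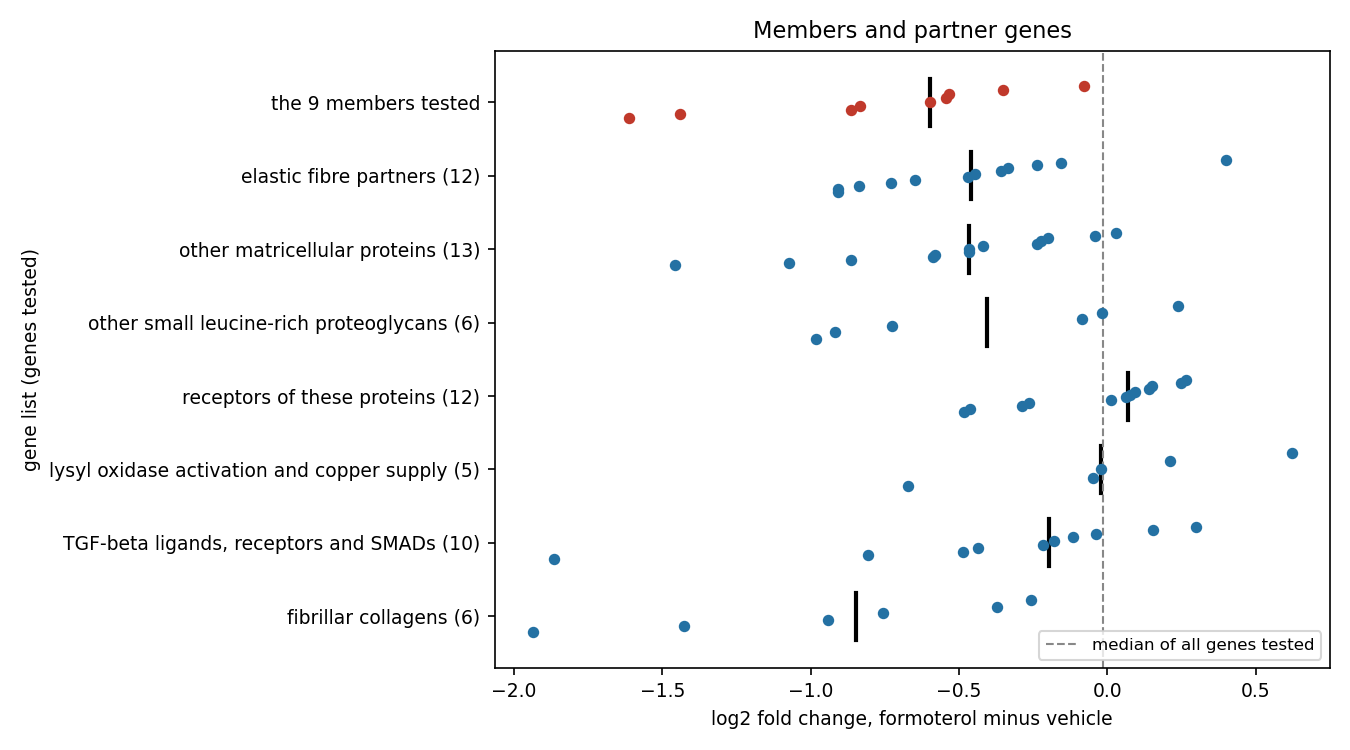
Log2 fold change (formoterol minus vehicle) of each gene tested in the list of 9 members (red) and in 7 lists of partner genes (blue), with list medians as black bars and the median of all 13042 genes tested (−0.01) as a dashed line. The matrix lists have medians from −0.85 to −0.40, the TGF-beta list lies at −0.20, and those of receptors and lysyl oxidase activation lie at 0.07 and −0.02. Marker lists, not plotted, had medians of −0.21 (stellate cell), −0.25 (portal fibroblast) and −0.29 (endothelium). The other marker lists had −0.21 (macrophage), −0.18 (platelet), −0.44 (mesothelium, 1 gene tested), 0.13 (cholangiocyte), 0.15 (smooth muscle) and 0.44 (hepatocyte).

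The genes most like the members were sought among the other 13033 genes tested, by Pearson's r over the 9 libraries of log2 CPM with the mean standardized level of the 9 members. The first 5 were Tpm4, a tropomyosin (r 0.99, rho 0.97), Cd38, an enzyme that breaks down NAD (r 0.99, rho 0.98), Lamb1, a laminin chain of basement membranes (r 0.99, rho 0.98), Col4a1, a chain of basement membrane collagen (r 0.98, rho 0.95) and Ppic, a cyclophilin (r 0.98, rho 0.98). Without M46 and M56, the libraries farthest from the median, r was 0.95 to 0.97 for these 5. After group means were removed, Cd38, Lamb1 and Tpm4 stayed among the first 5, joined by H2-Eb1 and Clcn6, whose r without M46 and M56, with group means kept, was 0.85 and 0.68. They were picked as the highest of many genes, so r is given as a description.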

How the data were processed

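Poly(A) RNA of 9 bulk liver samples was sequenced, 4 vehicle and 5 formoterol. The authors deposited raw read counts per Ensembl gene, whole numbers with no normalization, in 1 table with a length in bp per gene. The submitters' processing notes name HISAT2 2.0.5, the build mm39 and DESeq2. How reads were assigned to genes, with or without strand and by which annotation, is not given in the sources used here. Noncoding genes on the opposite strand overlap Fbn1, Eln, Lox and Thbs1 and had 0 counts in all libraries.

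Columns carry animal codes and a group suffix but no replicate number of the labels. Each library was taken as 1 mouse, since the design text counts mice; otherwise p-values measure only the spread between these samples. Over 16 pairs of libraries within a group, counts differed by chi-square per degree of freedom of 24.3 to 225, so none looks like a copy.

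Genes were kept by filterByExpr (minimum count 10, about 0.6 CPM in 4 libraries), which left 13042 of 56748, 9 of the 10 members among them. The comparison used edgeR 4.0.16 in R 4.3.3 with TMM factors and its quasi-likelihood test in robust mode. P-values were adjusted over all genes tested by Benjamini-Hochberg, with a threshold of 0.05. SE is the log2 fold change divided by the root of F. Log2 CPM used a prior count of 2. Limits for a count of 0 are 3 counts. DESeq2 1.42.0, limma 3.58.1 (voom), other scalings and filters and leaving out each library were alternatives, and the tests were run on simulated data. Leaving out M46 and M49 together was chosen after seeing the data.

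The members and lists were chosen with earlier results of these data known. Named genes are all members, up to 4 genes with the smallest p per partner list, and the 5 most like the members; 1 partner gene that the rule names is not reported here, and genes named beside a count of calls (Sparcl1) and Smoc1 were chosen after their values were seen.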

Additional observations from a re-analysis of the deposited data

Results flagged for a closer look

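A library stood apart from the rest of its group in 8 of 94 comparisons of 4 or 5 libraries, by a gap to its nearest neighbour that was large against the range of the group. Chance gives about 1 in 20, but these comparisons share the same 9 libraries and correlated genes. No excess over chance is therefore read from 8 of 94. Among the members this was Fbn1 in formoterol library M49, at 1.12 CPM where the next was 0.588. Among partner genes M49 was also high for Col1a1 (32.3 CPM, next 9.18), Col1a2 (42.1 CPM, next 12.8) and Tgfbi (35.2 CPM, next 19.8), and vehicle library M59 was high for Fmod (2.10 CPM, next 1.58). The summed portal fibroblast markers were high in M49 (113 CPM, next 53.8). The summed macrophage markers were low in formoterol library M46 (49.96 CPM, next 96.1) and in vehicle library M59 (61.4 CPM, next 106).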

How the results depend on the processing

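No paired analysis was possible because the columns of the count table carry no replicate number. The count of genes called over the whole table was 0 with all 9 libraries and edgeR, 263 with no filter on low counts, 314 by DESeq2, 1410 by limma-voom with sample quality weights and 323 without M46 and M49. Leaving out 1 library gave 0 to 702, with 702 without M49 and 4 without M60. Partner genes called were 0, and 2, 1, 14 and 3 under those same 4 alternatives, and 0 to 6 with 1 library left out, with 6 without M49. Members with a negative log2 fold change were 9 of 9, 10 of 10 with no filter, 5 of 5 under a filter at 30 counts, because fewer were tested, and 8 to 9 with 1 library left out. The log2 fold change of Postn was positive without M46 (0.10), M47 (0.003) or M56 (0.07), and ranged from −0.45 (without M49) to 0.10 with 1 library left out. The cause of the other differences was not tested. Scaling by library totals moved the median of all genes to −0.16 and that of the members from −0.60 to −0.69. By limma-voom the members' median was −0.90, or −0.99 with quality weights. By edgeR it was −0.98 without M46 and M49 and −1.28 to −0.38 with 1 library left out. By limma-voom with quality weights Dcn was at −0.54, Lum at −1.18 and Postn at −0.44. Fbn1, Eln, Lox and Thbs1 have few counts, which limits the precision of their values.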
